A study of Mus musculus with 6 samples.

Results

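The proteasome genes of mouse epidermal cells are described here across 3 libraries of K10-spastin embryos and 3 libraries of control embryos. Members were the protein-coding genes whose symbol is Psm, a letter from a to g and a number, with or without a final letter. That gave 49 of the 35275 genes in the deposited table. K10-spastin embryos (genotype label K10rtTA;TREspastin) make the microtubule-severing enzyme spastin in suprabasal cells under doxycycline, through an activator driven by the keratin 10 promoter, which is active in cells that have left the basal layer. The embryos were of the CD1 IGS strain. In both groups doxycycline chow was given to the dams from E14.5 (day of gestation), back skin was taken at E16.5, and cells positive for the H2B-GFP reporter were sorted from the epidermis. The sources used here do not say which transgenes the controls had or how many embryos were pooled for a library. Differences are therefore between the groups as labelled, and p-values measure the spread between these libraries, which may be technical.

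The proteasome is the protease that degrades proteins tagged with ubiquitin. Its barrel-shaped core particle is a stack of alpha and beta rings, with the proteolytic sites inside the beta rings. A regulatory particle sits on the core and has a base, whose ATPase ring unfolds substrates and threads them inward, and a lid, which removes the ubiquitin. Inducible beta subunits (Psmb8, Psmb9 and Psmb10) replace the constitutive catalytic subunits in immune cells and after interferon, and the PA28 and PA200 activators can cap the core in place of the regulatory particle. When proteasome activity is short, mammalian cells raise the transcription of subunit genes together through the factor NRF1, encoded by Nfe2l1.

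Spast, the induced gene, was read first and stood at 1431, 639 and 213 FPKM in K10-spastin 1 to 3, against 21.2, 24.0 and 21.4 FPKM in controls 1 to 3. FPKM is the number of sequenced fragments per length of gene, scaled to the size of the library, so each value is relative to the rest of its library. Steps between the low values gave depths of about 17320000 to 19580000 fragments in K10-spastin and 16020000 to 22460000 fragments in control, and 3 fragments in a 1 kb transcript were worth 0.134 to 0.187 FPKM over the 6 libraries. K10-spastin 1 stood apart, at -62.5 on the first principal component, against -31.5 and -24.3 for K10-spastin 2 and 3 and 36.1 to 43.7 for the controls. Its median log2 level over all tested genes was 0.30 below the control mean, and results are given without it where it matters. Krt1 and Krt10, which mark suprabasal keratinocytes, were at or above 11406 FPKM in every library, and the 6 spinous-layer markers summed to 31269 to 46232 FPKM in K10-spastin and 51688 to 67976 FPKM in control. Krt1 and Krt10 carried that difference, being the 2 of 6 that were lower in every K10-spastin library than in every control. In the rest the groups overlapped, and the K10-spastin mean was higher for Dsc1, Sbsn and Krtdap and lower for Dsg1a. The 6 basal-layer markers summed to 2495 to 4723 FPKM in K10-spastin and 4083 to 7171 FPKM in control. Of them 1, Krt15, was lower in every K10-spastin library, at 70.0, 449 and 261 FPKM, against 2095, 1237 and 1835 FPKM in control. The groups overlapped in the rest, with K10-spastin means higher for Krt14 and Itgb4 and lower for Krt5, Itga6 and Col17a1. Of 6 fibroblast markers, 5 were lower in every K10-spastin library than in every control, with summed levels of 0.791 to 3.03 FPKM in K10-spastin and 6.44 to 42.3 FPKM in control. Over all tested genes 24.8% were lower in this way, the share to set beside the fibroblast, spinous-layer and basal-layer counts. The 12 immune markers measured summed to 1.32 to 7.89 FPKM in K10-spastin and 1.04 to 3.83 FPKM in control, with Cd207 and Cd3e at 0 in all libraries and Ptprc at no more than 0.158 FPKM. Erythroid markers summed to 3.80 to 17.4 FPKM in K10-spastin and 7.64 to 330.7 FPKM in control, with groups that overlapped. Melanocyte markers summed to 1.15 to 21.9 FPKM in K10-spastin and 3.13 to 13.5 FPKM in control, and endothelial markers to 0.254 to 0.361 FPKM in K10-spastin and 0.164 to 0.278 FPKM in control. The part of basal cells, fibroblasts and the other cell types in the results below was not tested. In bulk libraries fewer cells of a type and less RNA per cell cannot be told apart.

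Of 31 constitutive subunits with Psm symbols, 11 rose in K10-spastin and 30 had every K10-spastin library above every control. No assembly factor and no activator was called. Of the 49 members, 44 had a mean of at least 1 FPKM and were tested with limma on log2(FPKM + 1) within a fit to 11071 genes. At a Benjamini-Hochberg adjusted p under 0.05, 11 members rose, against 5.14% of all tested genes, and none fell, against 5.90% of all tested genes. At an unadjusted p under 0.05, 27 members were higher and 2 lower, against 12.8% and 18.7% of all tested genes. In 31 members every K10-spastin library lay above every control (15.6% of all tested genes) and in 2 every K10-spastin library lay below (24.8% of all tested genes). The median log2 change of the 44 members was 0.35, and that of all tested genes was -0.09. Every change below is K10-spastin minus control in log2(FPKM + 1) units, in which low genes change by less than in FPKM, and ± gives its SE.

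The number called depended on the libraries and settings. Without control 1, 2 or 3 no member passed, although 23, 19 and 17 were higher at an unadjusted p under 0.05. Over all genes, 219, 142 and 113 were called higher in those fits, against 569 with all 6 libraries. Without K10-spastin 2 there was 1 call and without K10-spastin 3 there were 2, while 13 members rose without K10-spastin 1. Each of these fits had fewer libraries, and the median change of the members stayed between 0.32 and 0.35 in all 6 of them. Median-of-ratios scaling of the libraries moved the median of all genes from -0.09 to 0.04 and gave 18 calls, and quantile normalization gave 3. Over all genes these settings called 795 and 607 higher. There were 3 calls without a variance trend, 6 with no filter on low genes and 27 with array weights. Over all genes, 507, 319 and 1535 were called higher in these settings, in that order. The members' median exceeded that of all genes by 0.44 as deposited, by 0.45 under median-of-ratios scaling and by 0.29 under quantile normalization.

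**Figure D1:**
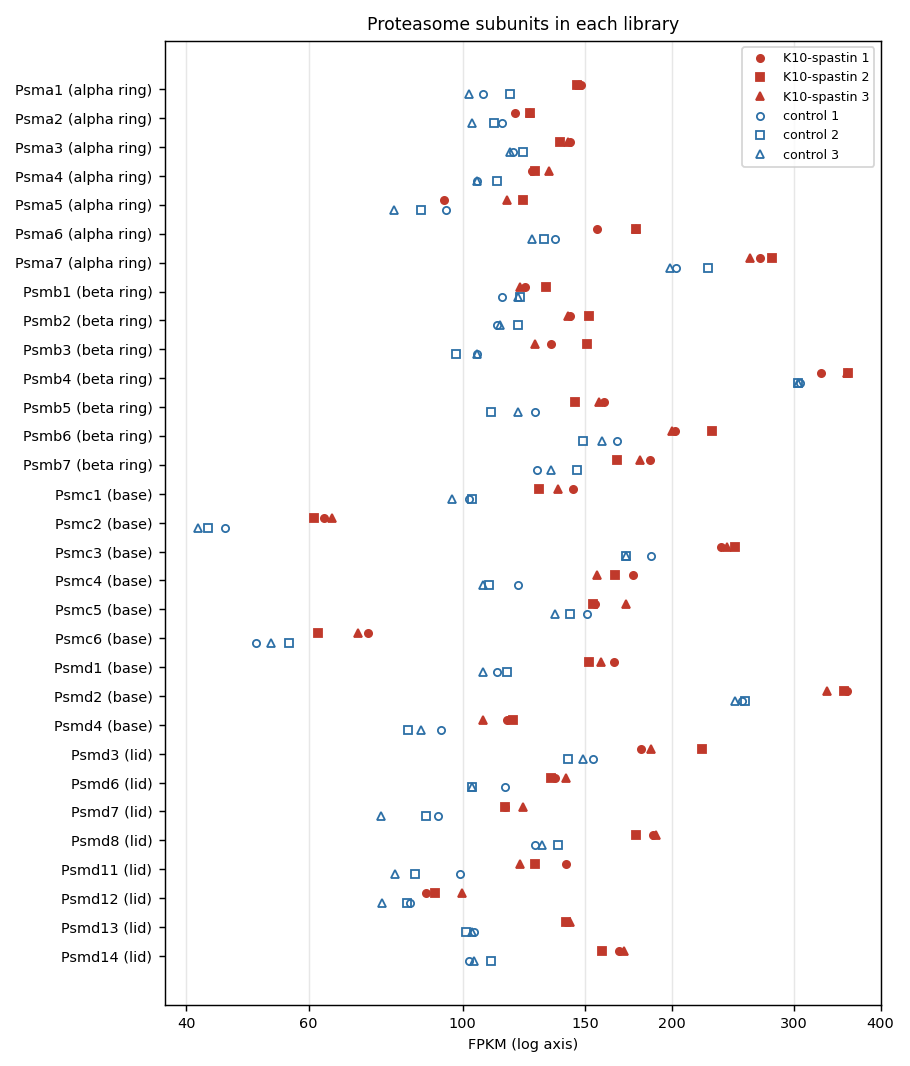
FPKM (log axis) of the 31 constitutive core and regulatory particle subunits in each library, with filled red symbols for K10-spastin and open blue symbols for control, and the same shape for the same replicate number. In 30 of the 31 genes all red symbols lie to the right of all blue symbols, and Psma5 is the exception.

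The promoters of several members are shown because the subunit genes were higher together. RefSeq sequences (build GRCm38.p6) run from 250 bases before to 50 after the start site, and 41 members matched. Both strands were searched for 5 motifs, and matches are in capitals. They were the antioxidant response core TGACNNNGC, which NRF1 and NRF2 can bind, the CCAAT box (CCAAT), the interferon-stimulated response element (TTTC, any 2 bases, TTTC), the gamma-activated site (TTCNNNGAA) and the core CGGAAGT bound by ETS factors, the last chosen after the promoters had been read. The first 3 promoters are of genes that rose, Psmb5 holds an antioxidant response core, and Psmb9 and Psme1 belong to the inducible arm.
Psmd14, chr2:61711444-61711743, plus strand: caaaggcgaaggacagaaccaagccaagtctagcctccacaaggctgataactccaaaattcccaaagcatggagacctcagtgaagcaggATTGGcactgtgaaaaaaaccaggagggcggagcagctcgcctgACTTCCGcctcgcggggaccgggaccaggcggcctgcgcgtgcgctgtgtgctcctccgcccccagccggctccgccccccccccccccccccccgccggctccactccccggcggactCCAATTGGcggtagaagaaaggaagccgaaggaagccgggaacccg
Psmc4, chr7:28050043-28050342, minus strand: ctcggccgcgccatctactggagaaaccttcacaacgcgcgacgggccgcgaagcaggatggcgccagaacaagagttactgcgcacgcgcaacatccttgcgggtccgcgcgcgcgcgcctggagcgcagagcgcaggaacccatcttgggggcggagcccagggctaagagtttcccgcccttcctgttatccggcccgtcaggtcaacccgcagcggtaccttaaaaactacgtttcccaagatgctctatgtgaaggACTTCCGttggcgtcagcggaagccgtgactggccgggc
Psmd8, chr7:29180624-29180923, minus strand: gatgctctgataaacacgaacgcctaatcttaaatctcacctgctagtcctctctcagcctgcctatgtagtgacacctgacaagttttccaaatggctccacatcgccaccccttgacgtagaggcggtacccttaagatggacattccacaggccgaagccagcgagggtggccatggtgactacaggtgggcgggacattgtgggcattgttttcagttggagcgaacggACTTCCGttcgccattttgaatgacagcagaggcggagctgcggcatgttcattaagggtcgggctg
Psmb5, chr14:54617946-54618245, minus strand: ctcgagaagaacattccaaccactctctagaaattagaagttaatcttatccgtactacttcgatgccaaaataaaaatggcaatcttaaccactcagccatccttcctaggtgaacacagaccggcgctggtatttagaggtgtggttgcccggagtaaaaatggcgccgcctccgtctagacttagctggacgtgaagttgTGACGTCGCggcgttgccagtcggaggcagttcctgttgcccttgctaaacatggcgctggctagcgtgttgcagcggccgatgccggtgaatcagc
Psmb9, chr17:34187281-34187580, minus strand: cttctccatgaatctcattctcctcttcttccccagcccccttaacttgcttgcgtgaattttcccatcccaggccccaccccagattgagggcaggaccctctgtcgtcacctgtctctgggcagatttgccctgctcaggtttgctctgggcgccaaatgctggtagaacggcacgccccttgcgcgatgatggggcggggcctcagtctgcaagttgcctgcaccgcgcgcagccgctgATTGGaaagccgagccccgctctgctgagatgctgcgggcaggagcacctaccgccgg
Psme1, chr14:55578244-55578543, plus strand: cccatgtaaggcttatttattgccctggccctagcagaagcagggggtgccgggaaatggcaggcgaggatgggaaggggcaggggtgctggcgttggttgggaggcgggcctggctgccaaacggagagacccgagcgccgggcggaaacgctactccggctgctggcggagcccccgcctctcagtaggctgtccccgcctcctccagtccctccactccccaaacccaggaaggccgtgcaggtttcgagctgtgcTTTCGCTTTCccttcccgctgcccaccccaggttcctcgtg

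Capitals in Psmd14, Psmc4 and Psmd8 mark the reverse complement of CGGAAGT, those in Psmb9 a reversed CCAAT box, and those in Psme1 an interferon-stimulated response element. Psmd14 also holds 3 CCAAT matches, of which a forward and a reversed match overlap. CGGAAGT was present in 12 of 27 promoters of the constitutive subunits (44.4%), 13.6% of the promoters of all tested genes and 6.42% of all promoters in the table. Those 27 promoters belong to 25 genes, and the 12 with a match to 11 genes. Of 10 genes that rose and had a promoter, 6 held it. Because this motif was picked after reading these promoters, its shares are a description and cannot serve as a test. The antioxidant response core was present in 4 of those 27 promoters (14.8%), against 14.4% for all tested genes and 12.4% of all promoters, and the CCAAT box in 10 of 27 (37.0%), against 37.2% and 37.4%. The interferon-stimulated response element was in 2 of 27 (7.41%), against 2.67% and 3.44%, and the gamma-activated site in 1 of 27 (3.70%), against 6.57% and 8.30%. These are matches of letters in a fixed window, and binding was not measured.

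The lid held the largest change among the tested members. Psmd14, the lid's deubiquitinating enzyme (Rpn11 in yeast), stood at 168, 159 and 171 FPKM in K10-spastin 1 to 3, against 102, 110 and 104 FPKM in controls 1 to 3. All of its K10-spastin libraries were above all of its controls, and it rose by 0.65 ± 0.11 (limma adjusted p = 0.0161), a mean 57.9% above control. It was called in 12 of 16 other settings, with limma adjusted p up to 0.0869, and was not called when any of the controls was left out. Psmd11 (Rpn6), a scaffold that clamps the lid to the core, stood at 141, 127 and 121 FPKM in K10-spastin and 99.0, 85.4 and 79.8 FPKM in control. It rose by 0.56 ± 0.13 (limma adjusted p = 0.0409). The groups did not overlap in Psmd11, but K10-spastin 1 was its highest library and it was not called without it (0.50 ± 0.12, limma adjusted p = 0.0505). It was called in 6 of 16 other settings. Psmd8 (Rpn12) stood at 188, 178 and 190 FPKM in K10-spastin and 127, 137 and 130 FPKM in control, and rose by 0.49 ± 0.11 (limma adjusted p = 0.0322). Psmd13 (Rpn9) was even within each group, at 141, 141 and 143 FPKM in K10-spastin and 104, 101 and 103 FPKM in control, and rose by 0.46 ± 0.10 (limma adjusted p = 0.035).

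The other 4 lid genes had all K10-spastin libraries above all controls and were not called. Psmd7 (Rpn8), the partner of Psmd14, stood at 115, 115 and 122 FPKM in K10-spastin and 92.1, 88.4 and 76.2 FPKM in control, a change of 0.46 ± 0.12 (limma adjusted p = 0.0558). Psmd3 (Rpn3) had a change of 0.40 ± 0.12 and Psmd6 (Rpn7) of 0.36 ± 0.11, with limma adjusted p of 0.0769 and 0.0785. Psmd12 (Rpn5) had the smallest change of the lid members, 0.20 ± 0.12, with a limma 95% interval of -0.08 to 0.47. Over the 8 lid members the median change was 0.46, and 4 of 8 rose.

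The base had the largest share of calls, with 6 of its 9 genes. Its ATPases form a ring that drives unfolding. Psmc4 (Rpt3) stood at 176, 166 and 156 FPKM in K10-spastin and 120, 109 and 107 FPKM in control, and rose by 0.56 ± 0.11 (limma adjusted p = 0.0272). Psmc2 (Rpt1), the least abundant of the ATPases, stood at 63.2, 61.0 and 64.8 FPKM in K10-spastin and 45.4, 42.9 and 41.5 FPKM in control, and rose by 0.53 ± 0.12 (limma adjusted p = 0.0321). These were the base genes called in the most other settings, 11 of 16 for Psmc4 and 10 of 16 for Psmc2. Psmc2 shares stretches of near-identical sequence with transcripts of 55 other genes, so some of its reads may be divided. Psmc3 (Rpt5) stood at 236, 247 and 240 FPKM in K10-spastin and 187, 172 and 172 FPKM in control, and rose by 0.44 ± 0.11 (limma adjusted p = 0.042). Psmc1 (Rpt2), whose tail helps to open the gate of the core, stood at 144, 129 and 137 FPKM in K10-spastin and 102, 103 and 96.5 FPKM in control, and rose by 0.44 ± 0.11 (limma adjusted p = 0.0471). The remaining ATPases were not called. Psmc6 (Rpt4) had a change of 0.36 ± 0.13 and Psmc5 (Rpt6) of 0.16 ± 0.11 (95% interval -0.11 to 0.42 for Psmc5), although in both genes the groups did not overlap.

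Of the non-ATPase subunits of the base, the large scaffolds Psmd2 and Psmd1 rose. Psmd2 (Rpn1), which docks ubiquitin receptors and shuttle factors, was among the most abundant members at 358, 354 and 335 FPKM in K10-spastin and 253, 255 and 247 FPKM in control. Its rise was 0.47 ± 0.10 (limma adjusted p = 0.0336). Psmd1 (Rpn2), which holds the receptor Adrm1, stood at 165, 152 and 158 FPKM in K10-spastin and 112, 116 and 107 FPKM in control, and rose by 0.50 ± 0.11 (limma adjusted p = 0.0324). In both scaffolds each K10-spastin library exceeded each control by a margin larger than the spread within either group. Psmd4 (Rpn10), a ubiquitin receptor, had a change of 0.37 ± 0.11 (limma adjusted p = 0.0774), with 116, 118 and 107 FPKM in K10-spastin and 93.1, 83.5 and 87.2 FPKM in control.

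**Figure D2:**
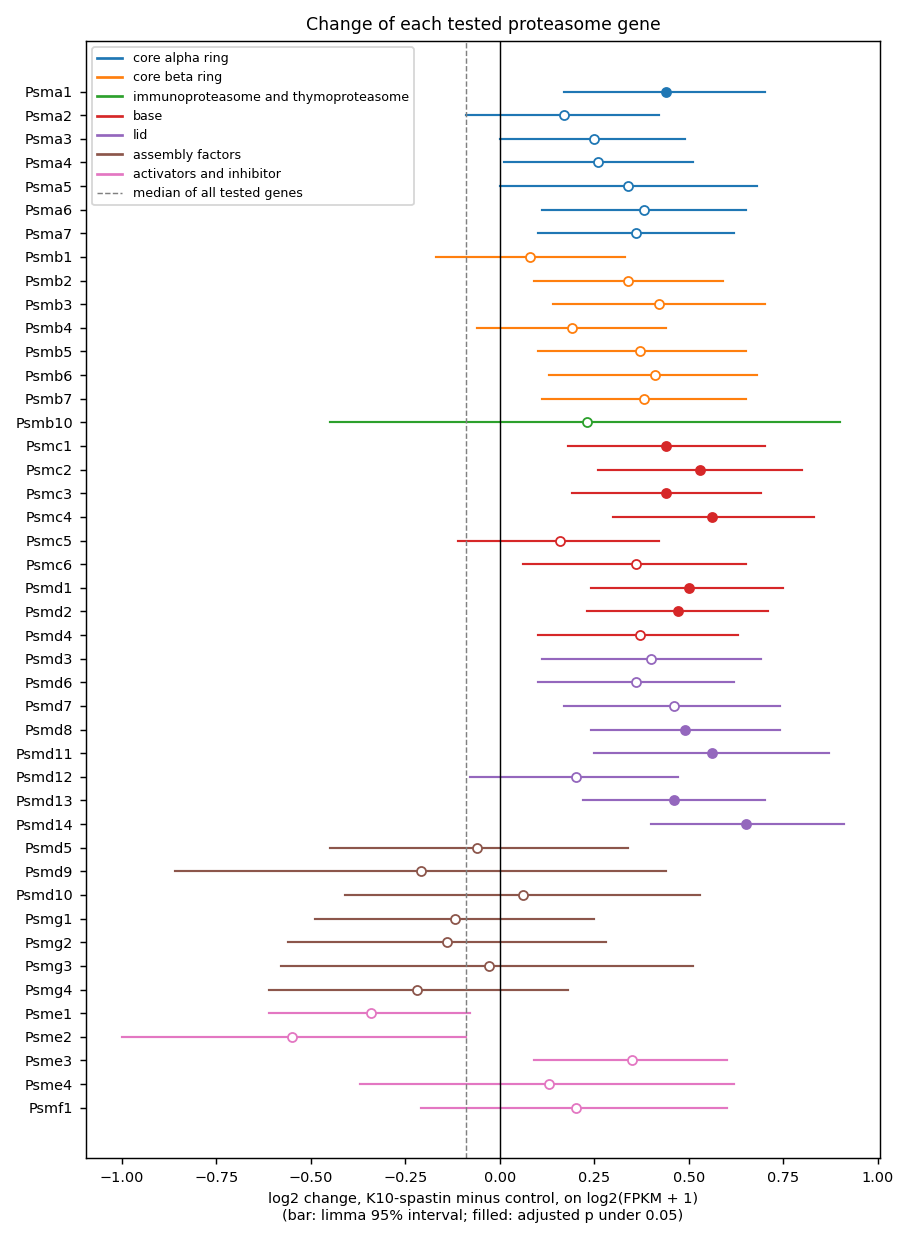
Log2 change (K10-spastin minus control, on log2(FPKM + 1)) of the 44 tested members with limma 95% intervals, coloured by role, filled where the adjusted p was under 0.05. The 31 constitutive subunits all lie right of 0, from 0.08 to 0.65, and 6 of the 7 assembly factors lie left of it, with intervals that cross it.

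Of the 14 constitutive core particle genes 1 passed the test (7.14%, against 5.14% of all tested genes called higher). In 13 every K10-spastin library lay above every control, as in 15.6% of all tested genes. Of the 7 tested alpha subunits, which form the outer rings and the gate, Psma1 (alpha6) rose by 0.44 ± 0.11 (limma adjusted p = 0.0498). It stood at 148, 146 and 147 FPKM in K10-spastin and 107, 117 and 102 FPKM in control, and was called in 3 of 16 other settings, so this call lay at the threshold. Psma6 (alpha1) and Psma7 (alpha4) had changes of 0.38 ± 0.11 and 0.36 ± 0.11 (limma adjusted p = 0.0732 and 0.0774). Psma3 (alpha7), Psma4 (alpha3) and Psma2 (alpha2) had smaller changes of 0.25 ± 0.10, 0.26 ± 0.11 and 0.17 ± 0.11, and in each of these 6 genes the groups did not overlap. Psma5 (alpha5) was the only one of the 31 constitutive members whose groups overlapped. It stood at 94.0, 122 and 116 FPKM in K10-spastin and 94.5, 87.0 and 79.6 FPKM in control, with K10-spastin 1 just below control 1. Without K10-spastin 1 its change was called.

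None of the 7 constitutive beta subunits passed, against 5.14% of all tested genes called higher. All 7 had every K10-spastin library above every control (15.6% of all tested genes). At an unadjusted p under 0.05, 5 were higher (12.8% of all tested genes). The 3 catalytic subunits had closely similar changes. Psmb5 (beta5, the chymotrypsin-like site) stood at 160, 145 and 157 FPKM in K10-spastin and 127, 110 and 120 FPKM in control, a change of 0.37 ± 0.12 (limma adjusted p = 0.0783). Psmb6 (beta1, the caspase-like site) stood at 202, 229 and 200 FPKM in K10-spastin and 167, 149 and 159 FPKM in control, a change of 0.41 ± 0.12 (limma adjusted p = 0.064). Psmb7 (beta2, the trypsin-like site) stood at 186, 167 and 180 FPKM in K10-spastin and 128, 146 and 134 FPKM in control, a change of 0.38 ± 0.11 (limma adjusted p = 0.0738). Among the non-catalytic subunits, Psmb3 (beta3) and Psmb2 (beta4) had changes of 0.42 ± 0.12 and 0.34 ± 0.11. Psmb4 (beta7), the most abundant member, stood at 328, 359 and 358 FPKM in K10-spastin and 306, 304 and 304 FPKM in control, a change of 0.19 ± 0.11. Psmb1 (beta6) had the smallest change of the 31 constitutive members, 0.08 ± 0.11, with a 95% interval of -0.17 to 0.33 and -0.03 under quantile normalization.

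Set side by side, the 17 regulatory particle genes had a median change of 0.46, with 10 called, and the 14 constitutive core genes a median change of 0.35, with 1 called. The difference between these sets was not tested. The regulatory particle median stood at 0.45, 0.44 and 0.45 above the control mean in K10-spastin 1 to 3, and the core median at 0.29, 0.35 and 0.31. All 31 genes were above their control mean in each of the 3 K10-spastin libraries, as were 3550, 5917 and 5256 of the 11071 tested genes in K10-spastin 1, 2 and 3. Summed over the 31 genes, levels were 4976, 5059 and 5003 FPKM in K10-spastin and 3928, 3884 and 3756 FPKM in control, a ratio of means of 1.30. The subunits varied little between libraries of a group. The median SD of their log2 values was 0.06 in K10-spastin and 0.07 in control, against 0.29 and 0.16 over all tested genes. The subunits were also more abundant, with a median of 146 FPKM in K10-spastin and 112 FPKM in control. Over all tested genes these medians were 13.3 and 13.9 FPKM, and spread was not compared between genes of like abundance. Among the 31 subunits, mean levels over the 6 libraries spanned 6.15-fold, from Psmc2 at 53.1 FPKM to Psmb4 at 327 FPKM. Each particle nevertheless uses its subunits in equal copy.

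**Figure D3:**
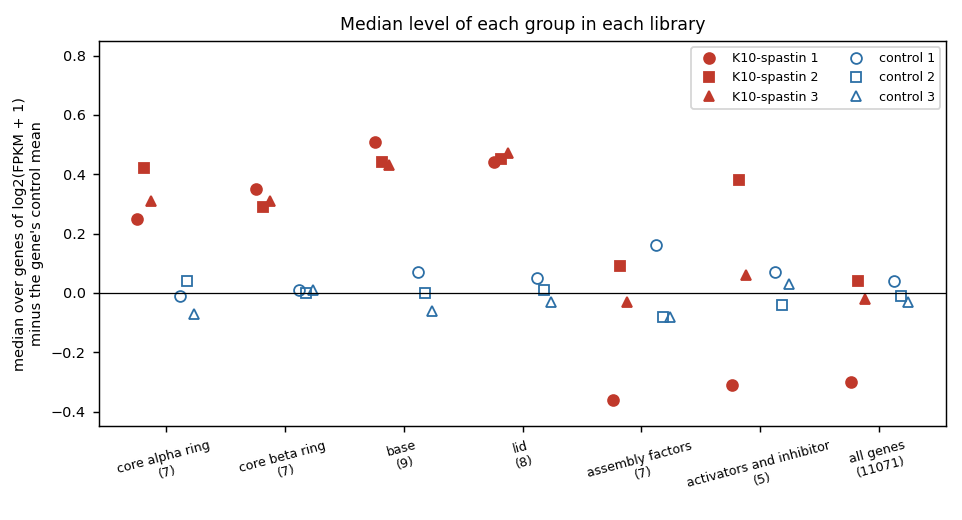
Median over the tested genes of each group (number in parentheses) of the log2(FPKM + 1) level minus the gene's control mean, in each library. In the alpha ring, beta ring, base and lid the K10-spastin libraries lie at 0.25 to 0.51 and the controls at -0.07 to 0.07, while the assembly factors of K10-spastin 1 lie at -0.36.

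Other members help to build the particle. None of the 7 assembly factors was called, and their median change was -0.12. Over all tested genes 5.14% were called higher and 5.90% lower, so no call among 7 genes is not unusual. The groups overlapped in all 7, while 15.6% of all tested genes had every K10-spastin library above every control and 24.8% below. The PAC chaperones guide the alpha ring together. Psmg1 (PAC1) stood at 31.2, 44.1 and 39.5 FPKM in K10-spastin and 42.7, 41.7 and 39.5 FPKM in control, a change of -0.12 ± 0.16 with a 95% interval of -0.49 to 0.25. Psmg2 (PAC2), its partner, and Psmg4 (PAC4) had changes of -0.14 ± 0.18 and -0.22 ± 0.17. Psmg3 (PAC3) was the least abundant tested member, at 2.37, 3.74 and 3.01 FPKM in K10-spastin and 3.95, 2.33 and 3.16 FPKM in control. K10-spastin 1 was the lowest library in Psmg1, Psmg2 and Psmg4, and the sum of the 4 PAC genes was 60.1 FPKM there, 80.4 and 76.6 FPKM in K10-spastin 2 and 3, and 87.9, 76.1 and 76.0 FPKM in control. Without K10-spastin 1 the changes of Psmg1, Psmg3, Psmd5 and Psmd9 were above 0, from 0.02 to 0.11.

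The base chaperones Psmd5, Psmd9 and Psmd10 hold ATPases apart until the ring can close. Psmd5 (S5b) stood at 26.0, 35.3 and 35.1 FPKM in K10-spastin and 37.2, 32.5 and 30.1 FPKM in control, a change of -0.06 ± 0.17. Psmd9 (p27) stood at 5.64, 12.2 and 11.4 FPKM in K10-spastin and 11.6, 11.1 and 9.98 FPKM in control, a change of -0.21 ± 0.28. In both genes K10-spastin 1 lay below all other libraries, while K10-spastin 2 and 3 of Psmd5 lay among the controls and K10-spastin 2 of Psmd9 was the highest library. Psmd10 (gankyrin) had a change of 0.06 ± 0.20. The upper 95% limits of the 7 changes ran from 0.18 for Psmg4 to 0.53 for Psmd10, so rises of the size seen in the subunits lie within several of these intervals.

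None of the 5 activator and inhibitor genes tested was called, and their values differed in direction. Over all tested genes 5.14% were called higher and 5.90% lower, so no call among 5 genes is not unusual. Psme1 and Psme2 encode the alpha and beta subunits of PA28, an interferon-inducible cap linked to antigen processing. Psme1 stood at 49.5, 49.3 and 46.3 FPKM in K10-spastin and 61.5, 60.5 and 62.9 FPKM in control, a change of -0.34 ± 0.11 (limma adjusted p = 0.0874). Psme2 stood at 67.3, 112 and 98.0 FPKM in K10-spastin and 142, 125 and 131 FPKM in control, a change of -0.55 ± 0.19 (limma adjusted p = 0.106). In both genes all K10-spastin libraries were below all controls, the only tested members of which this was true, and K10-spastin 1 was the lowest library for Psme2. Array weights called both lower, and quantile normalization called Psme2 lower. Psme3, the nuclear PA28 gamma, stood at 162, 172 and 166 FPKM in K10-spastin and 140, 127 and 126 FPKM in control, a change of 0.35 ± 0.11 (limma adjusted p = 0.0793), with groups that did not overlap. Psme4, the PA200 activator, stood at 72.5, 117 and 112 FPKM in K10-spastin and 76.9, 101 and 93.8 FPKM in control, and its groups overlapped. Psmf1 (PI31), an inhibitor of the core in vitro, had a change of 0.20 ± 0.17.

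**Figure D4:**
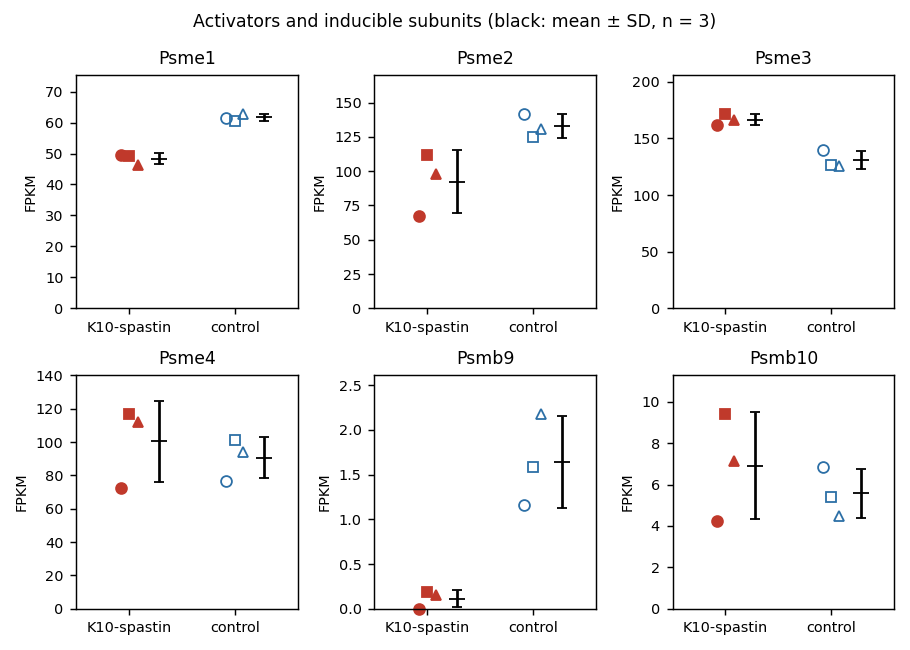
FPKM of 4 activator genes and 2 inducible beta subunits in each library, K10-spastin left of control, with the mean and SD (n = 3 each) in black. Psme1, Psme2 and Psmb9 are lower in all K10-spastin libraries than in all controls, Psme3 is higher, and Psme4 and Psmb10 overlap.

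Inducible subunits were scarce in these cells. Psmb8 (beta5i) stood at 0, 0.317 and 0.0795 FPKM in K10-spastin and 0.245, 0.0431 and 0.250 FPKM in control, near the value of 3 fragments in a 1 kb transcript. Its annotated exons cover 3381 bases, and over a longer transcript the same FPKM stands for more fragments. Psmb9 (beta1i) stood at 0, 0.184 and 0.156 FPKM in K10-spastin and 1.16, 1.58 and 2.18 FPKM in control, so all K10-spastin libraries lay below all controls. Its mean over the 6 libraries was under the filter, which it missed through its low K10-spastin values. In a fit with no filter its change was -1.23 (limma adjusted p = 0.0284). Psmb9 shares 212 exonic bases with Tap1 on the opposite strand in GENCODE M21, and the strandedness of the libraries is not given, so reads in that overlap cannot be assigned. Psmb10 (beta2i), the most abundant of the 3, stood at 4.22, 9.42 and 7.12 FPKM in K10-spastin and 6.83, 5.41 and 4.47 FPKM in control, a change of 0.23 ± 0.29. Against the constitutive subunit at the same site, Psmb9 made up 0%, 0.0804% and 0.0779% of Psmb9 and Psmb6 together in K10-spastin, and 0.693%, 1.05% and 1.35% in control (exact permutation p = 0.1, two-sided, the smallest that 3 against 3 allows). Psmb10 made up 3.80% ± 1.57 of Psmb10 and Psmb7 in K10-spastin and 3.95% ± 0.976 in control (SD, n = 3 each; exact permutation p = 1, two-sided), and the sign of this difference turned without K10-spastin 1 (0.635 percentage points) and without control 1 (0.402). Psmb8 made up 0.0897% ± 0.114 of Psmb8 and Psmb5 in K10-spastin and 0.147% ± 0.0936 in control (SD, n = 3 each; exact permutation p = 0.7, two-sided). The low members Psma8, the germ-line alpha subunit, Psmb11, the thymic beta subunit, and Psme2b, a retrogene copy of Psme2, were at or below 0.551 FPKM in all libraries and were not tested.

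Genes that work beside the proteasome were taken from 5 lists. Of 19 cofactors and delivery factors, 5 rose (26.3%) and none fell at an adjusted p under 0.05, with a median change of 0.07. Over all tested genes 5.14% rose and 5.90% fell. None of the 19 was lower at an unadjusted p under 0.05 either, against 18.7% of all tested genes. Transcripts for both proteins of a deubiquitinase module that docks on Psmd1 rose. Uchl5, a deubiquitinase, stood at 77.3, 92.3 and 97.8 FPKM in K10-spastin and 50.5, 48.8 and 43.1 FPKM in control (0.89 ± 0.14, limma adjusted p = 0.0142). Adrm1 (Rpn13), the ubiquitin receptor that carries it, stood at 165, 220 and 171 FPKM in K10-spastin and 114, 96.0 and 102 FPKM in control (0.82 ± 0.15, limma adjusted p = 0.0195). The others that rose, named after their values were seen, were the deubiquitinase Usp14 (0.54 ± 0.12), the p97 cofactor Nploc4 (0.55 ± 0.11) and Akirin2 (0.58 ± 0.13), needed in human cells for nuclear import of proteasomes. The abundant segregase Vcp and shuttle Rad23b had changes of 0.27 ± 0.12 and 0.37 ± 0.11 (limma adjusted p = 0.175 and 0.0704). Pomp, the maturation factor of the core, and Sem1, a small lid subunit outside the Psm symbols, also named after their values were seen, had changes of 0.02 ± 0.11 and 0.03 ± 0.12 (limma adjusted p = 0.912 and 0.897). Of 14 regulators of proteasome gene transcription none was called, with 2 higher and 2 lower at an unadjusted p under 0.05. Over all tested genes 12.8% were higher and 18.7% lower at that threshold, so these counts lie near those shares. The 2 higher, named after their values were seen, were Nfe2l2 (NRF2, 0.68 ± 0.23) and Bach1 (1.11 ± 0.34). The 2 lower, named likewise, were Foxo4 (-0.69 ± 0.21) and Nfyb (-0.70 ± 0.27). Limma adjusted p for these 4 ran from 0.0728 to 0.129. Nfe2l1 stood at 129, 121 and 114 FPKM in K10-spastin and 105, 112 and 100 FPKM in control, groups that did not overlap, with a change of 0.19 ± 0.11 (limma adjusted p = 0.29). Stat3 had a change of 0.22 ± 0.14 (limma adjusted p = 0.317).

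Of 11 genes for ubiquitin and its first enzymes, 1 fell and none rose, against 5.90% and 5.14% of all tested genes. Ubb, a polyubiquitin gene, stood at 555, 464 and 457 FPKM in K10-spastin and 708, 689 and 786 FPKM in control, a change of -0.57 ± 0.13 (limma adjusted p = 0.0362). Rps27a, which encodes ubiquitin fused to a ribosomal protein, had a change of -0.28 ± 0.13 (limma adjusted p = 0.181). Of 12 genes of class I antigen processing, the pathway that presents proteasome products, 2 fell and 1 rose. Over all tested genes 5.90% fell and 5.14% rose. The peptide transporter Tap1 stood at 1.54, 3.35 and 4.32 FPKM in K10-spastin and 12.2, 13.0 and 16.8 FPKM in control, a change of -1.93 ± 0.30 (limma adjusted p = 0.0131). Tapbp, which tethers class I molecules to the transporter, stood at 16.8, 21.7 and 24.3 FPKM in K10-spastin and 42.3, 41.4 and 45.5 FPKM in control, a change of -1.02 ± 0.16 (limma adjusted p = 0.0154). The gene that rose, named after its values were seen, was Nlrc5, an activator of class I genes, at 16.0, 3.63 and 4.52 FPKM in K10-spastin and 0, 0.0980 and 0.0474 FPKM in control. Nlrc5 passed the filter through its K10-spastin values alone, with means of 8.05 FPKM in K10-spastin and 0.0484 FPKM in control. Its call is therefore a description and gives no support. The abundant chaperones of that list, Calr and Pdia3, had changes of 0.40 ± 0.12 and 0.28 ± 0.11 (limma adjusted p = 0.073 and 0.146). Of 15 interferon response genes 8 were tested, with a median change of -0.50, and 1 rose and 1 fell. Counts of 1 in lists this short cannot be told from the shares over all tested genes. Bst2, an antiviral tether, rose by 0.79 ± 0.18, and Ifi35 fell, with a change of -1.20 ± 0.29 (limma adjusted p = 0.0357 and 0.0417). Irf1, an interferon-induced factor, was uneven among controls, at 1.23, 3.91 and 1.13 FPKM in K10-spastin and 0.751, 13.2 and 31.5 FPKM in control (limma adjusted p = 0.279).

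**Figure D5:**
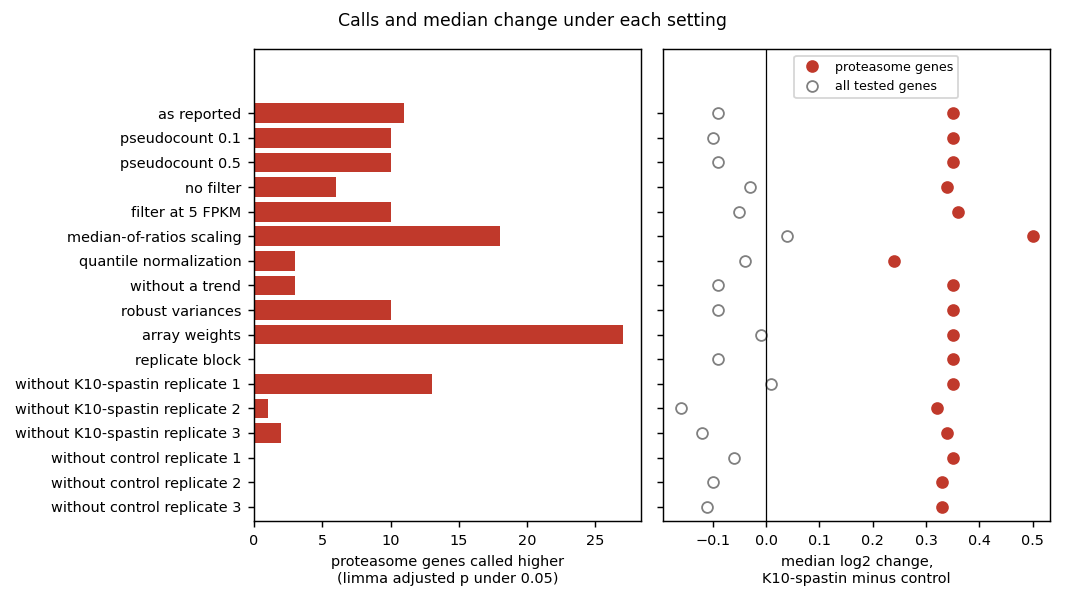
Number of proteasome genes called higher at a limma adjusted p under 0.05 (left) and median log2 change, K10-spastin minus control, of the proteasome genes and of all tested genes (right), under each setting. The count runs from 0 to 27, and the median of the proteasome genes from 0.24 to 0.50. Over all genes, which are not drawn in the left panel, the number called higher ran from 113 to 1535.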

How the data were processed

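Messenger RNA was sequenced from 3 K10-spastin and 3 control libraries of sorted mouse epidermal cells. The deposited table gives FPKM per Ensembl gene and library, as the authors computed it, with no raw counts. Per the submitters' processing notes, CASAVA and TopHat2 were used. For the counter, genome build, annotation and strandedness no statement was found (not given in the sources used here). The only coordinates printed are those of the RefSeq promoters, in their own build. Symbols matched 34490 of 35275 identifiers.

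Depth was read from the step between low FPKM values in 14953 genes with 1 annotated transcript (GENCODE M21 lengths), where 90.6% to 91.5% of values up to 20 fragments were whole within 0.05. It describes precision only, and fragments are not independent molecules. The 11071 genes that averaged 1 FPKM or more over the 6 libraries entered a limma 3.58.1 fit (R 4.3.3) of log2(FPKM + 1) on group, with a mean-variance trend; tests were two-sided, p-values were adjusted over all of them by the Benjamini-Hochberg method, and calls lie under 0.05. The replicate number was not a block, since no label says that it marks a litter or day. The fit was tested on simulated data with changes larger than those of the tested members and with no outlying library. That check does not cover calls at the size of change reported for the members. Inducible shares were compared by exact permutation.

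Members, roles, lists and tests were chosen with earlier results of these data known. Every member may be named; of each list, the 2 called genes with the smallest p and the 2 most abundant genes, and others are marked in the text. Of the members, 24 share at least 200 bases at 90% identity with a transcript of another gene (BLAST 2.17.0) and 14 overlap another gene's exons, so some reads may be divided between genes. Of the 11 that rose, 8 share such a stretch (Psmc2 with 55 genes, and Psmc1, Psmd1, Psmd2, Psmd8, Psmd11, Psmd13 and Psmd14 with 1 or 2 each), and Psmc3, Psmd1 and Psmd13 overlap other genes' exons. Alternatives were pseudocounts of 0.1 and 0.5, no filter or 5 FPKM, quantile or median-of-ratios scaling, no trend, robust variances, array weights, the replicate block and each library left out. Tables and plots were made in Python 3.11.15 (pandas 2.3.3, numpy 2.4.6, matplotlib 3.10.9).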

Additional observations from a re-analysis of the deposited data

How the results depend on the processing

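All 11 members that rose kept a positive change in all 16 other settings, as did 30 of the 31 constitutive subunits; Psmb1 was at -0.03 under quantile normalization. Spast was called in all 16. The members higher numbered 6 with no filter, 18 under median-of-ratios scaling, 3 under quantile normalization, 3 without a trend, 27 with array weights and 0 with the replicate block (limma, 14 at an unadjusted p under 0.05). Leaving out a library gave 0 to 13. The members lower numbered 1 with no filter (Psmb9), 1 under quantile normalization (Psme2) and 2 with array weights (Psme1 and Psme2). The median change of the members was 0.50 under median-of-ratios scaling and 0.24 under quantile normalization. Over all genes, 319 were higher and 348 lower with no filter, 1535 and 1771 with array weights, 274 and 218 with the replicate block, and 414 were lower at 5 FPKM; leaving out a library gave 113 to 691 higher and 32 to 701 lower. The cause of these moves was not tested, beyond the fewer libraries or genes in some fits. The numbers did not pair the libraries, with correlations of same-numbered deviations of -0.128, -0.378 and -0.047. The Psmb10 share difference ran from -0.931 to 0.635 percentage points without a library, the Psmb9 one from -1.15 to -0.817 and the Psmb8 one from -0.122 to -0.0123.

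Changes that were not called turned sign in 6 assembly factors: Psmd5 to 0.09 under median-of-ratios scaling, 0.11 with array weights and between -0.13 and 0.09 without a library; Psmd9 to 0.05 with array weights and between -0.39 and 0.11 without a library; Psmg1 to 0.02 under median-of-ratios scaling and between -0.23 and 0.02 without a library; Psmg2 to 0.02 with array weights; Psmg3 to 0.07, 0.16 and 0.13 under median-of-ratios, quantile and array weights and between -0.18 and 0.10 without a library; and Psmd10 to between -0.07 and 0.23 without a library. Of 160 counts over the related lists, 111 stayed within 1.5 times, which includes counts of 0 that stayed at 0. This number therefore does not show how stable the calls in those lists were. Depth limits Psma8, Psmb8, Psmb11 and Psme2b, which were at or below 0.551 FPKM in all libraries. It also limits Psmb9 in K10-spastin, at 0, 0.184 and 0.156 FPKM. For comparison, 3 fragments in a 1 kb transcript were worth 0.134 to 0.187 FPKM. The annotated exons of Psmb8 and Psmb9 cover 3381 and 3660 bases, over which the same FPKM stands for more fragments.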
